A study of Mus musculus with 12 samples.

Results

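The replication-dependent histone genes of the mouse blastocyst were taken as all rows of the deposited gene table whose symbol starts with Hist1h, Hist2h, Hist3h or Hist4h followed by one of the 5 histone classes H1, H2A, H2B, H3 or H4. The rule found 67 of 34245 genes, of which 54 carry a Hist1 symbol, 10 a Hist2 symbol, 2 a Hist3 symbol and 1 (Hist4h4) a Hist4 symbol. By class there were 6 H1, 18 H2A, 18 H2B, 12 H3 and 13 H4 genes. The RNA came from embryos that were collected at the 2-cell stage, grown to E3.5 blastocysts in culture and then kept for 4, 7 or 10 h with either 20 µM SB220025, a p38-MAPK inhibitor (p38i), or its solvent DMSO. Each of these 6 groups had 2 libraries, each from a separate pool of 30 whole embryos, so that trophectoderm, epiblast and primitive endoderm were measured together. A lower level in such a pool cannot be told apart from fewer cells in S phase. With 2 libraries against 2, an exact two-sided permutation test of a single value cannot give a p below 0.333, so p-values here come from the limma fit over all genes.

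Replication-dependent histone genes lie in clusters and supply the core and linker histones that package newly copied DNA. Their transcripts rise in S phase, lack introns and usually end in a conserved stem-loop, bound by the protein SLBP, in place of a poly(A) tail. Replacement histones, such as those encoded by H2afz and H3f3b, are made throughout the cell cycle from ordinary polyadenylated transcripts. Some cluster genes, among them Hist1h1c, Hist1h2bc, Hist2h2be and Hist4h4, are known to give polyadenylated transcripts as well. Because the libraries were prepared by oligo-dT selection, a level given here is that of the RNA which passed this selection, and not of all histone RNA.

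The stem-loop was searched in the annotated transcripts (GENCODE M21, GRCm38) as GGCNCTTTTCAGNGCC, on the transcribed strand, in the 150 bases after the stop codon. Of the 52 members long enough to be searched, 33 held it exactly and 13 with 1 or 2 different letters. Over all 21175 coding genes with annotated bases after the stop codon, 34 (0.161%) held the exact motif, and 33 of those were histone members. The sites of members described below are shown because the data differ among them, with the matched 16 bases in capitals and 5 bases on each side:
Hist1h1c: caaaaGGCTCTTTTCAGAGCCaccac
Hist3h2a: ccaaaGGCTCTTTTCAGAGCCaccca
Hist1h3c: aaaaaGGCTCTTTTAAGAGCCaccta
Hist1h4i: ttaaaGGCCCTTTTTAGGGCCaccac
Hist1h4b: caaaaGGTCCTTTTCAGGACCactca
Hist4h4: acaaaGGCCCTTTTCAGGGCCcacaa

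These lie at chr13:23739507-23739532 (+) for Hist1h1c, chr11:58955167-58955192 (+) for Hist3h2a, chr13:23745042-23745067 (-) for Hist1h3c, chr13:22040961-22040986 (-) for Hist1h4i, chr13:23757361-23757386 (+) for Hist1h4b and chr6:136803993-136804018 (-) for Hist4h4, each in the 3′ UTR. Hist1h3c and Hist1h4i differ from the searched letters at 1 base and Hist1h4b at 2. The annotated transcript ends 28 bases after the match in Hist1h4b and 74 bases after it in Hist1h3c. In Hist1h1c, Hist3h2a, Hist1h4i and Hist4h4 the annotation runs on for 840, 1643, 330 and 2445 bases. No match with up to 2 different letters was found in this window for Hist1h2bc, Hist2h2be or Hist1h1a. For 13 members, Hist1h2ak and Hist2h2bb among them, the annotated transcript ends with the stop codon and could not be searched.

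Histone transcripts were scarce in these libraries, and a few genes supplied most of the reads. The deposited log2 RPKM values, which scale reads by the length of the exons and the depth of the library, could be turned back into whole reads for all 67 members. The libraries held 11242313 to 24457312 reads in genes, of which 811 to 1417 fell on histone members. This amounted to between 36.8 and 82.9 RPM (reads scaled to the total of the library, as in RPKM but without the length), the lowest in p38i 10 h replicate 1 (95% exact Poisson interval 34.3 to 39.5, which covers counting error only) and the highest in DMSO 4 h replicate 1 (78.6 to 87.3). In the sum over 12 libraries, Hist1h2bc alone held 21.3% of the 12496 histone reads, Hist1h4i 12.5%, Hist1h1c 12.03% and Hist3h2a 9.19%. A read was found in every library for 20 members, in at least 1 library for 59 and in none for 8.

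**Figure D1:**
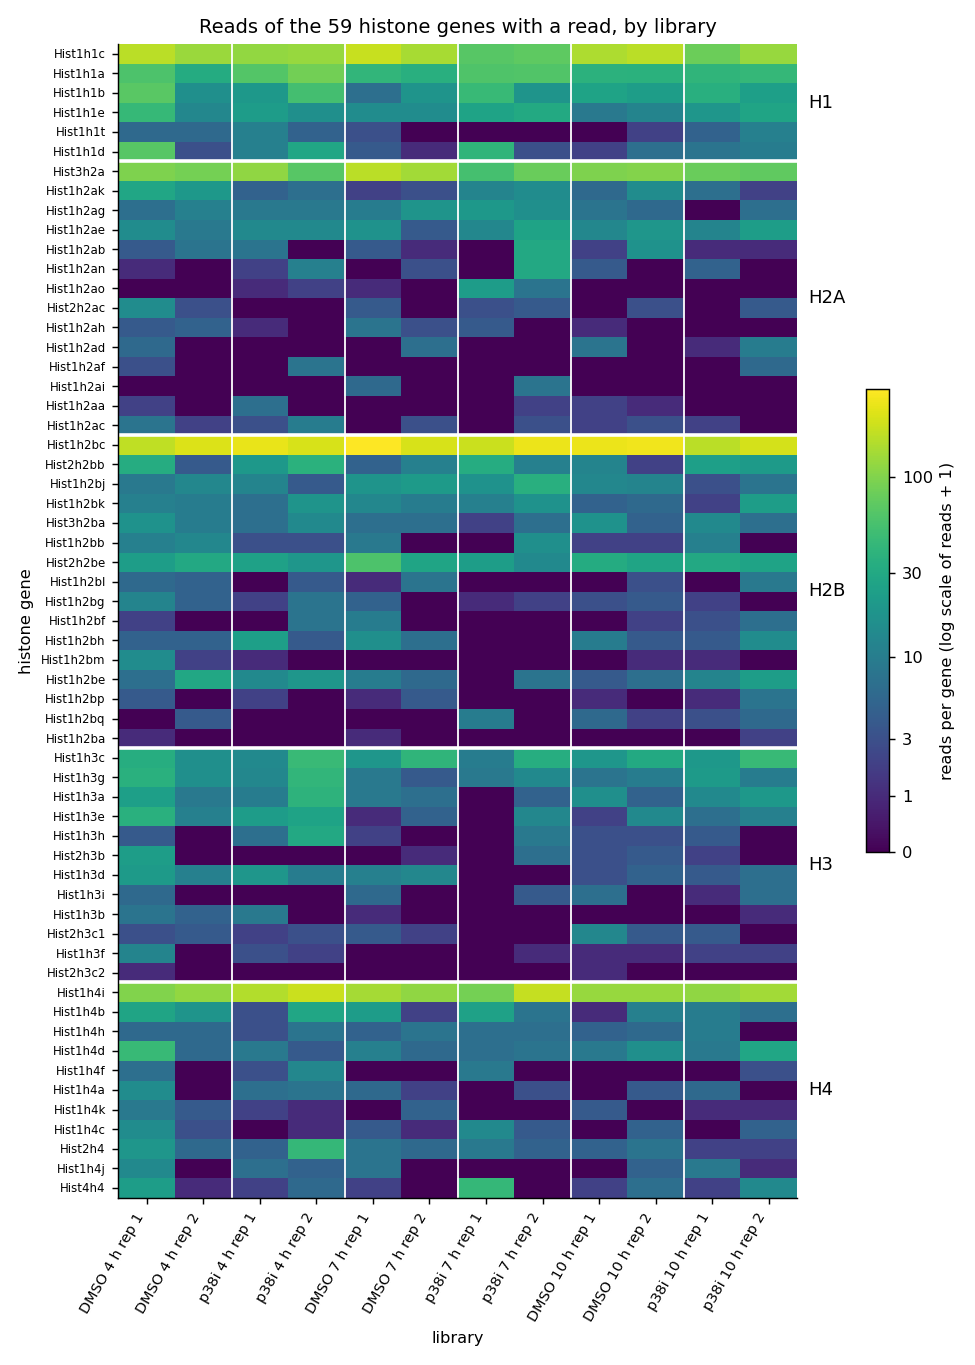
Reads per histone gene (rows, grouped by class and ordered by mean RPKM) in each of the 12 libraries (columns), on a colour scale that is logarithmic in reads + 1. Hist1h2bc, Hist1h4i, Hist1h1c and Hist3h2a were read in all 12 libraries at 54 to 295 reads, whereas in p38i 7 h replicate 1 the median member had 0 reads.

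Expressed per length as RPKM, with 0 where no read was counted, 16 members averaged at least 1 RPKM over the 12 libraries and 2 at least 5 RPKM. The highest was Hist1h2bc at 9.76 RPKM (range 6.40 to 14.2), which ranked 5011 among all 34245 genes, followed by Hist1h4i at 9.04 RPKM (6.77 to 14.2) and Hist1h1c, a somatic linker histone, at 4.01 RPKM (2.39 to 6.19). The median member averaged 0.327 RPKM. All members together summed to 40.8 to 97.9 RPKM per library, against 676 to 928 RPKM for the 12 replacement histone genes. Of the latter, H2afx averaged 209 RPKM, H3f3b 189 RPKM and H2afz 134 RPKM, and H1foo, the oocyte linker histone, was lowest at 0.815 RPKM.

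By class, summed RPKM averaged over the 12 libraries was 18.7 for H2B (13.2 to 28.9), 14.5 for H4 (8.999 to 23.8), 10.6 for H1 (7.21 to 18.5), 9.03 for H2A (4.07 to 19.3) and 7.57 for H3 (2.92 to 18.9). H2B was the highest class in 11 of 12 libraries and H4 in the remaining 1, whereas H3 was the lowest in 8 and H2A in 4. The ranges of neighbouring classes in this order overlapped. One gene carried much of the sum in H2B (Hist1h2bc, 52.2%) and H4 (Hist1h4i, 62.4%), and less in H1 (Hist1h1c, 37.8%), H3 (Hist1h3c, 28.1%) and H2A (Hist3h2a, 24.6%). Without its highest gene, H2B summed to 8.94 RPKM, H2A to 6.81 RPKM, H1 to 6.60 RPKM, H4 to 5.45 RPKM and H3 to 5.44 RPKM. H2B was then still the highest and H3 the lowest, while H4 was below H2A and H1.

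Members were also divided by the annotated length after the stop codon. The 22 members with over 250 annotated bases after it (a limit chosen after the values were seen) held 69.9% of histone reads and a summed mean level of 29.7 RPKM, at a median of 0.285 RPKM. The 30 members with 3 to 250 such bases held 22.3% and 21.5 RPKM, at a median of 0.414 RPKM, and the 15 members with at most 2 bases held 7.80% and 9.22 RPKM, at a median of 0.317 RPKM. Reads and summed levels were thus highest in the longest group, and the medians were not. Of the members known to give poly(A) transcripts, Hist1h2bc and Hist1h1c were the highest of their classes, while Hist2h2be averaged 0.539 RPKM and Hist4h4 0.196 RPKM.

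Near-identical copies made some members hard to measure. A 50-base window (the read length) was counted as unique if no other annotated gene held it, apart from genes that overlap the member. The share of unique windows ranged from 0% for Hist2h2aa2 to 100% for Hist1h1a and Hist2h2bb, of which Hist2h2bb overlaps Gm20628 and Gm42743. In 15 members it was under 20%, and these held 2.32% of the histone reads. They included 7 of the 8 members without a read, namely Hist2h2aa1, Hist2h2aa2, Hist1h2ap, Hist1h2bn, Hist1h2br, Hist1h4m and Hist1h4n, and the other was Hist2h2ab. A count of 0 in a library allows up to 0.123 to 0.267 RPM, depending on its depth. How reads matching several copies were counted is not given in the sources used here, and the values of these members are uncertain. The testis histone genes that the rule also takes, Hist1h1t, Hist1h2aa and Hist1h2ba, had 49, 14 and 4 reads over all 12 libraries.

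Of the 12 libraries, DMSO 4 h replicate 1 and p38i 7 h replicate 1 stood apart in RNAs that lack a poly(A) tail. Rmrp, the RNA of the RNase MRP complex, was at 117 and 66.6 RPKM in these, against 8.72 to 31.4 RPKM in the other 10. Rpph1, the RNA of RNase P, was at 71.5 and 40.4 RPKM against 4.29 to 12.05 RPKM, and Gm42418, a locus that collects ribosomal RNA reads, at 25354 and 7353 RPKM against 2004 to 4115 RPKM. Malat1, whose 3′ end is also not polyadenylated, was not set apart in this way, ranging from 69.4 to 131 RPKM over all libraries. The embryo markers were present throughout, with summed levels of 1734 to 2552 RPKM for 6 trophectoderm genes, 499.9 to 661 RPKM for 4 epiblast genes and 91.8 to 141 RPKM for 4 primitive endoderm genes. Markers of other cells stayed low, at 0.0700 to 0.8996 RPKM for 4 cumulus genes, 0 to 1.01 RPKM for 2 globin genes and 1.37 to 7.15 RPKM for 5 oocyte genes.

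The low-abundance histone genes were high in the same libraries. The 62 members outside the 5 highest by mean RPKM (Hist1h2bc, Hist1h4i, Hist1h1c, Hist1h1a and Hist2h2bb, a division made after the values were seen) held 51.9 RPM in DMSO 4 h replicate 1 and 23.4 in replicate 2. In p38i at 7 h they held 38.8 and 28.3 RPM in replicates 1 and 2, and in the other 8 libraries 17.1 to 29.8. The 5 highest members ranged less, from 19.2 to 38.7 RPM over all 12 libraries. Their highest value was also in p38i 7 h replicate 1, with 32.9 RPM in p38i 7 h replicate 2 and 31.0 in DMSO 4 h replicate 1. The part of the RNAs without a tail in these histone values was not tested.

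**Figure D2:**
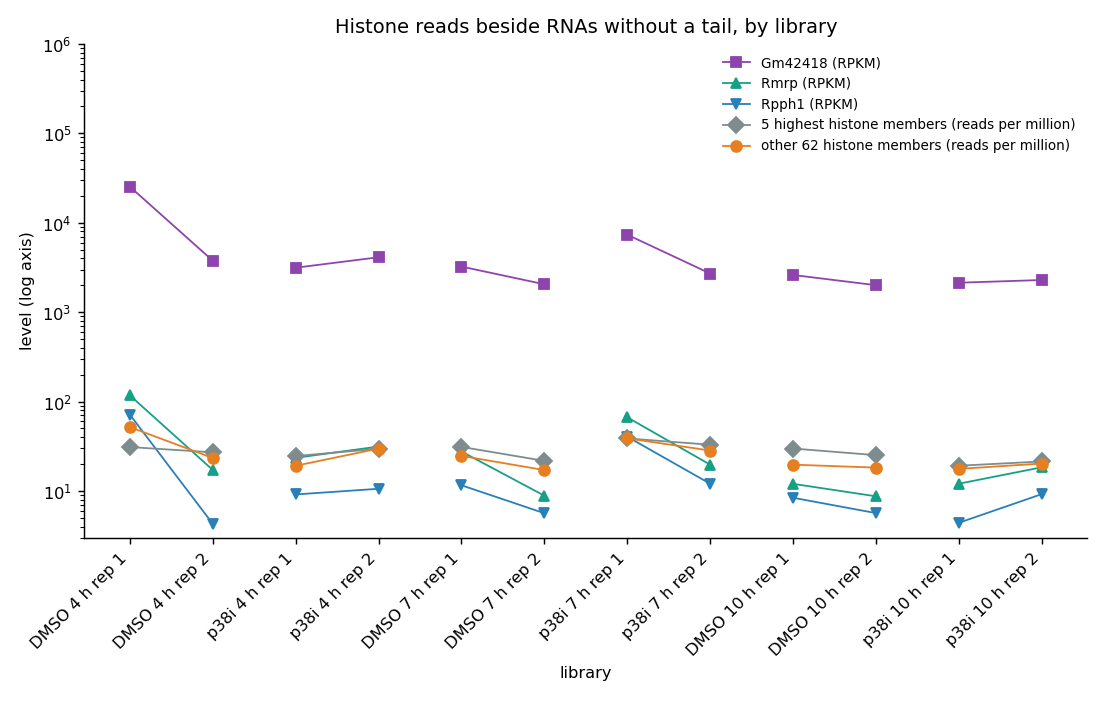
Levels by library (x axis) on a logarithmic y axis of the 5 highest histone members and of the other 62 (RPM), and of Gm42418, Rmrp and Rpph1 (RPKM), with lines joining the 2 replicates of a group. Rmrp, Rpph1 and Gm42418 reached their highest levels in DMSO 4 h replicate 1 and their next highest in p38i 7 h replicate 1, as did the other 62 histone members.

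Measured by the SD of log2 values, which was not matched for level or reads, replicate pools differed more in histone genes than in other genes. Among the 26 members that reached 1 RPKM in 2 or more of the 12 libraries, the median SD of the 2 log2 values of a group was 0.62 in DMSO at 4 h, 0.73 in p38i at 4 h, 0.58 in DMSO at 7 h, 0.74 in p38i at 7 h, 0.29 in DMSO at 10 h and 0.64 in p38i at 10 h. For all 11590 genes passing the same filter it was 0.09 to 0.21. These members are short, with a median exon length of 574 bases against 4033 for all genes passing, so that a given RPKM rests on fewer reads. In DMSO at 4 h, 20 of the 26 members were higher in replicate 1, whereas only 18.2% of all genes were. In p38i at 4 h, 6 of 26 were higher in replicate 1, against 56.3% of all genes.

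The differences between replicates were then set against counting error, by an exact two-sided binomial test of the 2 libraries' reads for every gene with 6 to 100 reads in a group, with Benjamini-Hochberg adjustment over all such genes at 0.05 (a test added after the data were seen). In DMSO at 4 h, 21 of 44 members differed between the pools, 20 of them higher in replicate 1, against a background of 18% of 4809 genes. In p38i at 4 h, 18 of 37 members differed, against 35.9% of genes, and 14 of these were higher in replicate 2. In DMSO at 7 h it was 6 of 31 members against 21% of genes, in p38i at 7 h 18 of 31 against 62.1%, in DMSO at 10 h 6 of 32 against 14.2%, and in p38i at 10 h 8 of 34 against 18.9%. Only in DMSO at 4 h was the members' share, 47.7%, more than double the background, and in both 7 h groups it was below it.

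Single members showed how far pools of the same group could lie apart. Hist4h4 had 43 reads in p38i 7 h replicate 1 and 0 in replicate 2 (adjusted p = 9.31e-16, exact binomial test over the genes of that group), and 23 and 1 reads in DMSO at 4 h (adjusted p = 0.000109). Hist1h1d, a linker histone gene chosen after its values were seen, had 67 and 3 reads in DMSO at 4 h (adjusted p = 2.98e-14) and 40 and 3 in p38i at 7 h (adjusted p = 1.12e-11). In both genes the high value was in the library of the pair with more Rmrp. It was not so for Hist1h2ab and Hist1h2an, also chosen after their values were seen, which each had 0 reads in p38i 7 h replicate 1 and 30 in replicate 2 (adjusted p = 3.69e-06 for each).

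**Figure D3:**
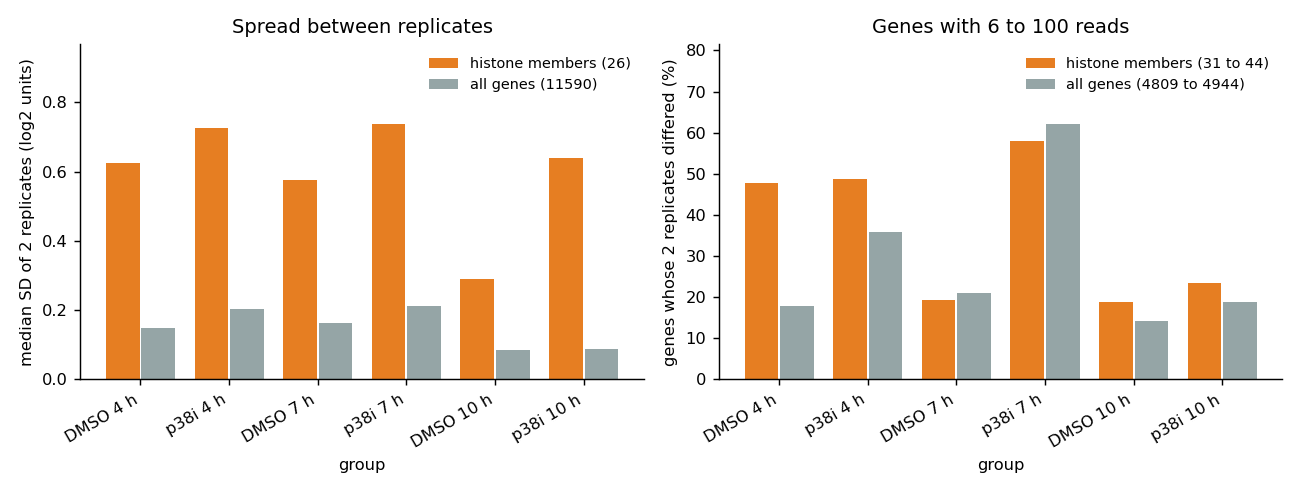
Left, median SD between the 2 replicates of each group (y axis, log2 units) for 26 histone members and all 11590 genes. Right, percentage of genes with 6 to 100 reads whose replicates differed by the exact binomial test, for histone members and all such genes. Members had the larger SD in all 6 groups, whereas their share of differing genes was below that of all genes in both 7 h groups.

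To ask how p38-MAPKi affected histone transcripts, p38i was compared with DMSO at each time by limma on the log2 RPKM values, over genes that reached 1 RPKM in 2 or more of the 4 libraries, with Benjamini-Hochberg adjustment over all of them and a threshold of 0.05. The filter kept 18 members at 4 h, 15 at 7 h and 13 at 10 h, since the others were near or below 1 RPKM, and a member that is high in 1 group only could pass through that group. At 4 h, 2 members (Hist1h2ak and Hist1h4b) fell, beside a background of 0.909% of 10781 genes called. In the 4 h fit, limma gave each gene the replicate SD usual at its level. The SE and p of a gene at 4 h thus do not measure its own replicate spread. Of the 18 members, 15 had an SD above that of their level, beside 34.6% of all genes. At 7 h no member passed (background 2.13% of 10940 genes), 8 of 15 had an unadjusted p below 0.05 beside 28.4% of all genes, and voom, a count-based variant of limma, on the recovered reads called 0 beside 15.8% of genes. At 10 h no member passed (background 0.803% of 10959 genes), 5 of 13 had an unadjusted p below 0.05 beside 19.8% of all genes, and voom again called 0 beside 4.78% of genes.

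At 4 h, more histone members were lower than higher in p38i. As a description, since the filter reads the same values, the median log2 fold change of the 18 members was -0.34, against 0.07 for all genes tested, and 13 of 18 were negative while 60.03% of all genes were positive. Over all 67 members, mean RPM were lower in p38i for 43 and higher for 15, with 9 unread. Both p38i libraries lay below both DMSO libraries for 5 of 18 members and above for 0, beside 40.4% of all genes with no overlap in either direction. The median of the members was 0.24 (18 members) without p38i 4 h replicate 1, so its direction rested on that library. It was 0.19 without DMSO 4 h replicate 1, where the filter kept 13 members and the set was thus not the same. In the same comparison none of the 5 tested RNAs without a tail was positive (median -0.47), nor any of the 4 ribosomal RNA loci (median -1.04). Of these, Rmrp (log2 fold change -0.72 ± 0.20 SE, adjusted p = 0.0403, limma) and Rpph1 (-0.83 ± 0.22, adjusted p = 0.0201) passed as lower, as did Gm42418 (-1.44 ± 0.28, adjusted p = 0.000223). In all of them the groups overlapped, and the high DMSO value was in replicate 1 alone. Rmrp was at 117 and 17.2 RPKM in DMSO and 23.5 and 31.4 in p38i, and Rpph1 at 71.5 and 4.29 against 9.15 and 10.6. Gm42418 was at 25354 and 3768 against 3143 and 4115. As said above, the SE at 4 h does not measure this spread. The part of these RNAs in the histone result was not tested.

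The H2A gene Hist1h2ak (ENSMUSG00000063021.3, chromosome 13, 21753435 to 21753827, minus strand, an annotated transcript of 393 bases that is all coding) had the lowest adjusted p of the members at 4 h. It was at 4.17 and 2.79 RPKM in DMSO (28 and 20 reads) and at 0.523 and 0.824 RPKM in p38i (5 and 7 reads). Both p38i libraries were thus below both DMSO libraries, by a log2 fold change of -2.38 ± 0.42 SE (limma, adjusted p = 1.63e-05). Under the alternatives of processing the adjusted p ranged from 4.65e-08 to 0.295, and the call did not hold in a fit of all 12 libraries, with voom on the recovered reads, after centring on the median, after quantile normalization, without the filter, or after removal of the trend with gene length. It reached 1 RPKM in the DMSO libraries alone, so that it entered the test through the group in which it was high, and without either DMSO library it failed the filter and was not tested. Only 47.7% of its 50-base windows are unique, with 43.3% shared with each of Hist1h2ao and Hist1h2ap, and it overlaps Gm44454 on the other strand.

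The other member that passed at 4 h, the H4 gene Hist1h4b (ENSMUSG00000069266.5), rested on 1 library. It was at 3.98 and 2.48 RPKM in DMSO and at 0.310 and 3.26 RPKM in p38i, so the groups overlapped. Its log2 fold change was -1.64 ± 0.38 SE (adjusted p = 0.00485, limma, with a range of 3.71e-10 to 0.99998 over the alternatives) and became 0.05 without p38i 4 h replicate 1. The fit used an SD of 0.38 for Hist1h4b, whereas its own SD between replicates was 1.73. The 2 p38i pools differed by themselves, at 3 and 28 reads (adjusted p = 2.47e-05, exact binomial test over the genes of that group). Hist1h2bb, an H2B gene, had 11 and 13 reads in DMSO and 3 and 3 in p38i, with a log2 fold change of -2.37 ± 0.73 SE that did not pass (adjusted p = 0.0798, limma). It reached 1 RPKM in its DMSO libraries alone and entered the test through the group in which it was high.

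At 7 h, most histone members were higher in p38i, but no single one passed the test. The median log2 fold change of the 15 members was 1.08, against -0.14 for all genes tested, and 13 of 15 were positive while 40.1% of all genes were. With no filter, which brings in the unread members, the medians of the 67 members and of all 34245 genes were both 0.67. Then 49 of 67 members were positive beside 68.8% of all genes. A gene without a read is written as 0.9 read, so library depth alone sets its log2 fold change. That value is also 0.67 here, so these medians do not measure a change in expression, and unread members count as positive. RNAs without a tail were also higher in p38i, with 6 of 6 tested positive and a median of 1.44. The ribosomal RNA loci were higher too, with 4 of 4 positive and a median of 0.76. The part of these RNAs in the histone result was not tested. Over all 67 members, mean RPM were higher in p38i for 34 and lower for 22, with 11 unread. Both p38i libraries lay above both DMSO libraries for 11 of 15 members and below for 1 (Hist3h2a), beside 61.7% of all genes with no overlap in either direction. Without p38i 7 h replicate 1, which was high in RNAs without a tail, the median was 0.88 (13 members) and 2 members, Hist1h4i and Hist1h2bj, passed, beside 5.42% of genes. Without p38i 7 h replicate 2 it was 0.93 (13 members) and 5 members passed, namely Hist2h2bb, Hist1h1b, Hist1h2ag, Hist1h4b and Hist1h1a, beside 27.4% of genes. The 2 sets of members had no gene in common. Without DMSO 7 h replicate 1 the median was 1.19 and without replicate 2 it was 0.71, and 0 members passed in either case, beside 3.62% and 0% of genes.

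The members nearest to the threshold at 7 h were Hist1h2ak and Hist1h1a. Hist1h2ak was at 0.241 and 0.327 RPKM in DMSO (2 and 3 reads) and at 2.72 and 2.19 RPKM in p38i (12 and 15 reads), a log2 fold change of 3.12 ± 0.67 SE (limma, adjusted p = 0.0503), and it passed the filter through its p38i libraries alone. Hist1h1a, a linker histone gene, was at 2.62 and 2.02 RPKM in DMSO and at 7.32 and 4.80 RPKM in p38i, a log2 fold change of 1.36 ± 0.30 SE (adjusted p = 0.0514). In both genes the p38i libraries lay above the DMSO libraries without passing the adjusted threshold. The 2 most abundant members were also above DMSO in both p38i libraries. Hist1h4i was at 8.80 and 6.77 RPKM in DMSO and at 10.9 and 14.2 RPKM in p38i (log2 fold change 0.69 ± 0.23 SE, adjusted p = 0.0968, limma). Hist1h2bc was at 12.1 and 7.67 RPKM in DMSO and at 14.2 and 12.4 RPKM in p38i (0.46 ± 0.24 SE, adjusted p = 0.245, limma).

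A pair of members went the other way at 7 h. Hist1h1c was at 5.50 and 3.82 RPKM in DMSO and at 3.82 and 2.61 RPKM in p38i (log2 fold change -0.54 ± 0.31 SE, adjusted p = 0.277, limma). Hist3h2a was at 3.58 and 2.63 RPKM in DMSO and at 2.24 and 2.11 RPKM in p38i (-0.50 ± 0.32 SE, adjusted p = 0.328, limma). Neither differed beyond the threshold.

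**Figure D4:**
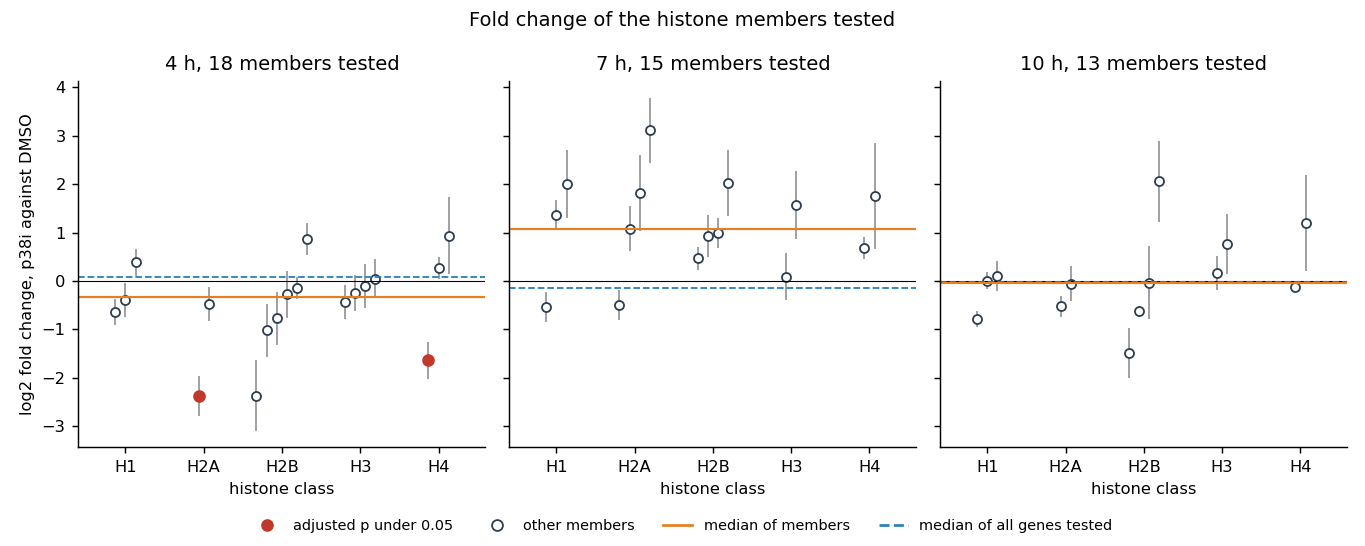
Log2 fold change of p38i against DMSO (y axis, points, with bars of 1 SE from limma) for the members tested at 4, 7 and 10 h, by histone class (x axis), with the median of the members (solid line) and of all genes tested (dashed line). At 4 h the SE follows the level of a gene and not its own replicates. The filled points are Hist1h2ak and Hist1h4b at 4 h, and the median of the members was -0.34, 1.08 and -0.04 at the 3 times.

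At 10 h, single histone members lay on both sides of DMSO, while all of them together were at lower RPM in p38i. Over all members the RPM were 49.5 and 43.4 in DMSO and 36.8 and 41.7 in p38i, a ratio of means of 0.845, with the exact Poisson intervals of p38i replicate 2 (39.1 to 44.3) and DMSO replicate 2 (40.8 to 46.2) overlapping. The 5 highest members summed to 29.4 and 23.8 RPKM in DMSO and 21.2 and 22.5 RPKM in p38i, whereas the other 62 overlapped. The median log2 fold change of the 13 members was -0.04, against -0.02 for all genes, and 6 of 13 were positive while 45.7% of all genes were. Over all 67 members, mean RPM were higher in p38i for 31 and lower for 26, with 10 unread. Both p38i libraries lay below both DMSO libraries for 4 members (Hist3h2a, Hist1h2bj, Hist1h2bc and Hist1h1c) and above for 1 (Hist2h2bb), beside 52.2% of all genes with no overlap. Of these, Hist1h2bj passed the filter through its DMSO libraries alone. Hist1h2bc was at 11.4 and 9.70 RPKM in DMSO and at 6.40 and 7.22 RPKM in p38i, a log2 fold change of -0.63 ± 0.12 SE (limma, adjusted p = 0.0727). Hist1h1c was at 4.95 and 4.54 RPKM in DMSO and at 2.39 and 3.17 RPKM in p38i, a log2 fold change of -0.79 ± 0.17 SE (adjusted p = 0.0905). These abundant members were thus lower in both p38i libraries without passing the threshold.

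Hist1h1c and Hist3h2a were lower on average in p38i at all 3 times. For Hist1h1c the DMSO libraries at 4 h were at 6.19 and 4.39 RPKM and the p38i libraries at 3.08 and 3.65 RPKM (log2 fold change -0.64 ± 0.27 SE, adjusted p = 0.360, limma). For Hist3h2a they were at 2.67 and 2.27 RPKM and at 2.20 and 1.42 RPKM at 4 h (-0.48 ± 0.36 SE, adjusted p = 0.721, limma), and at 2.37 and 2.06 RPKM and 1.69 and 1.39 RPKM at 10 h (-0.53 ± 0.21 SE, adjusted p = 0.232, limma). In Hist3h2a both p38i libraries were below both DMSO libraries at each time, in Hist1h1c at 4 and 10 h, and none of these differences passed the test.

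The remaining members named for their class or their poly(A) transcripts showed no difference that passed. Hist1h3c, the highest H3 gene, was at 3.16 and 1.39 RPKM in DMSO and 0.913 and 3.38 RPKM in p38i at 4 h, and at 1.43 and 2.72 RPKM in DMSO and 1.41 and 3.10 RPKM in p38i at 7 h, so that the replicates of each group lay farther apart than the group means. Hist1h3g was at 0.804 and 0.323 RPKM in DMSO and 1.51 and 1.52 RPKM in p38i at 7 h (log2 fold change 1.57 ± 0.70 SE, adjusted p = 0.179, limma). It passed the filter through its p38i libraries alone. Hist2h2bb ranged from 0.225 to 7.70 RPKM over the 12 libraries, with its 2 highest values, 7.70 and 5.07 RPKM, in p38i 7 h replicate 1 and DMSO 4 h replicate 1. Hist1h2ae, an H2A gene, was at 1.14 and 0.243 RPKM in DMSO and 1.64 and 2.12 RPKM in p38i at 7 h (1.82 ± 0.78 SE, adjusted p = 0.167, limma). Hist2h2be ranged from 0.306 to 1.07 RPKM and Hist4h4 from 0 to 1.34 RPKM over all libraries.

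Summed by class, H2A was the only class whose groups did not overlap at any of the 3 times, in a changing direction. At 4 h the H2A genes summed to 13.4 and 8.96 RPKM in DMSO and to 6.18 and 6.63 RPKM in p38i, a ratio of means of 0.573. At 7 h they summed to 8.46 and 6.10 RPKM in DMSO and to 15.7 and 19.3 RPKM in p38i, a ratio of 2.40, and at 10 h to 6.95 and 7.34 RPKM in DMSO and to 4.07 and 5.26 RPKM in p38i, a ratio of 0.652. Among all genes tested singly, 40.4%, 61.7% and 52.2% did not overlap in either direction at 4, 7 and 10 h. At 4 h the mean H2A sum was 11.2 RPKM in DMSO and 6.40 RPKM in p38i, of which Hist1h2ak held 3.48 and 0.673 RPKM. The H1 genes at 10 h summed to 9.74 and 8.42 RPKM in DMSO and 7.72 and 7.99 RPKM in p38i. At 7 h the p38i pools reached these sums through different genes, since Hist1h2ao had 22 reads in replicate 1 and 8 in replicate 2, whereas Hist1h2ab and Hist1h2an were read 30 times each in replicate 2 alone. Hist1h2ao and Hist1h2an have under 20% unique windows.

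At 7 h, H1, H2B and H4 were likewise above DMSO in both p38i libraries, with ratios of means of 1.71, 1.51 and 1.80. The H4 sum was 13.9 and 8.999 RPKM in DMSO and 23.8 and 17.4 RPKM in p38i, and the H2B sum 20.6 and 14.1 RPKM in DMSO and 28.9 and 23.5 RPKM in p38i. For H1 it was 9.11 and 7.21 RPKM in DMSO and 18.2 and 9.74 RPKM in p38i. H3 overlapped at all 3 times, and at 7 h was at 4.61 and 4.44 RPKM in DMSO and 2.92 and 8.72 RPKM in p38i. Over all members the RPM at 7 h were 55.8 and 38.8 in DMSO and 77.5 and 61.3 in p38i. The exact Poisson interval of p38i replicate 2 (57.6 to 65.0) overlapped that of DMSO replicate 1 (52.7 to 59.1), and the other pairs of p38i and DMSO libraries were apart.

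**Figure D5:**
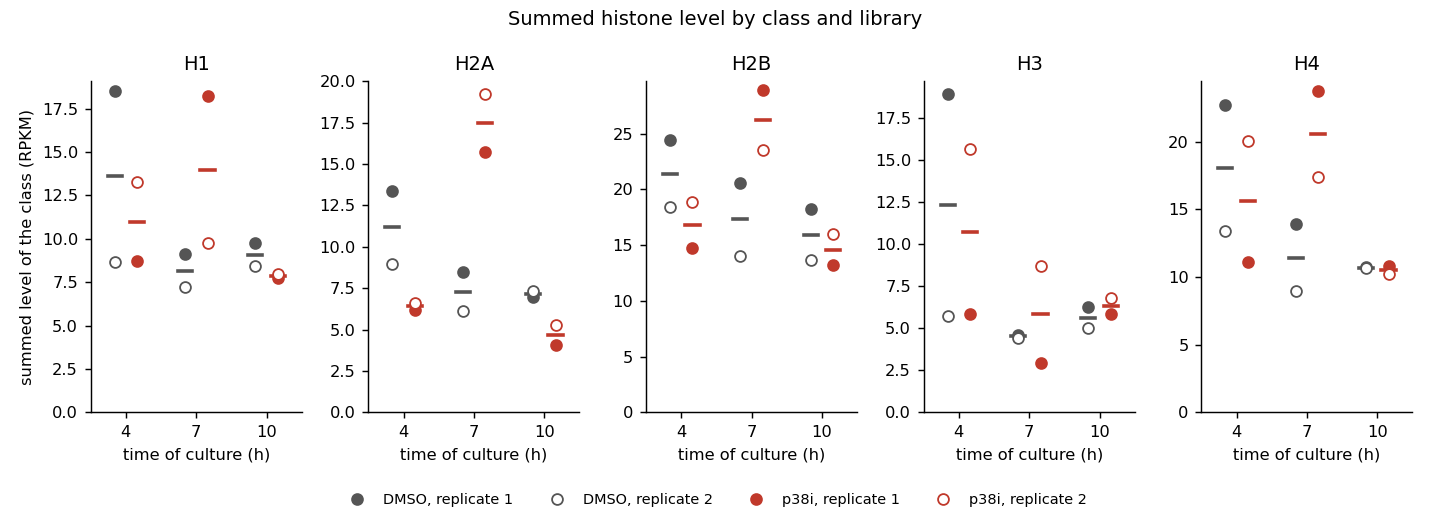
Summed RPKM of each histone class (panels) by time of culture (x axis), with DMSO in grey, p38i in red, replicate 1 filled, replicate 2 open and the group mean as a bar. H2A lay below DMSO in both p38i libraries at 4 and 10 h and above it at 7 h, while H3 overlapped at each time.

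Whether the effect of p38i differed between times was tested as an interaction over 8 libraries. From 4 to 7 h, 1 of 24 members tested passed, beside 0.00884% of 11311 genes, which is 1 gene in all. This was Hist1h2ak, whose effect was 5.50 ± 0.69 SE higher at 7 h than at 4 h on the log2 scale (limma, adjusted p = 0.0393, with a range of 0.000972 to 0.992 over the alternatives). As a description, since the filter reads the same values, the median over the 24 members was 1.30, against -0.22 for all genes. Of the 24, 21 were positive while 29.7% of all genes were. With no filter the medians were 1.04 for the 67 members and 0.91 for all 34245 genes. Then 56 of 67 members were positive beside 64.9% of all genes. Library depth alone gives unread genes the same 1.04. The members' unfiltered median thus does not measure an effect on histones, and unread members count as positive. In the same comparison, 7 of 7 tested RNAs without a tail (median 1.94) and 4 of 4 ribosomal RNA loci (median 2.24) were positive. Their part in the histone result was not tested. Among these 8 libraries, Hist1h2ak reached 1 RPKM only in DMSO at 4 h and p38i at 7 h. These were the 2 groups in which it was high, and it entered the test through them. From 7 to 10 h, 0 of 18 members passed (limma, background 0.00877% of 11400 genes), 5 of 18 had an unadjusted p below 0.05 beside 26.3% of all genes, and voom on the recovered reads also called 0 beside 7.78% of genes. The members' share was thus near the background. The 4 to 7 h and 7 to 10 h differences share the 7 h libraries.

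In DMSO alone, from 4 to 10 h, 0 of 17 members passed, beside 0.471% of 10825 genes called by limma, while 5 of 17 had an unadjusted p below 0.05 beside 15.2% of all genes, and voom on the recovered reads called 1 beside 4.33% of genes. The median log2 fold change was -0.68 against 0.14 for all genes, and 2 of 17 members were positive while 75.7% of all genes were. None of 4 tested RNAs without a tail (median -1.44) and none of 4 ribosomal RNA loci (median -1.94) was positive, and of these Gm26917 fell (-1.62 ± 0.25 SE, adjusted p = 0.0151, limma). Their part in the histone values was not tested. Hist1h2ak was at 0.802 and 1.64 RPKM in DMSO at 10 h, compared with 4.17 and 2.79 RPKM at 4 h (-1.57 ± 0.34 SE, adjusted p = 0.0742, limma). With no filter the medians were -0.61 for the 67 members and -0.25 for all genes, and 7 of 67 members were positive beside 37.1% of all genes. The -0.25 is the value that library depth alone gives to unread genes, and unread members count as negative. Without DMSO 4 h replicate 1, the filter kept 10 members, with a median of -0.01 against 0.04 for all genes. The set of members changed with that library, so this does not show how far the lower median at 10 h rested on it. Over all 67 members, a set that no filter changes, the RPM were 82.9 and 50.4 in DMSO at 4 h and 49.5 and 43.4 at 10 h. Replicate 2 at 4 h thus lay close to replicate 1 at 10 h, and replicate 1 at 4 h lay above both.

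Few of the genes that work with histones passed the test. Of 12 replacement histone genes, none passed at 4 or 7 h. At 10 h H2afx, the variant phosphorylated at DNA breaks, was the only 1 of 11 tested to pass, as lower in p38i (log2 fold change -0.71 ± 0.06 SE, adjusted p = 0.03004, limma). Of these 11, 3 were positive, with a median of -0.15. Of 17 tested genes of histone mRNA transcription, processing and decay, only Npat, the coactivator of histone genes in S phase, passed, and fell at 7 h (-1.31 ± 0.27 SE, adjusted p = 0.0476, limma). Slbp, whose product binds the stem-loop, had log2 fold changes of -0.39, -0.45 and -0.42 at 4, 7 and 10 h, none of which passed (adjusted p = 0.590, 0.160 and 0.102, limma). Of 11 histone chaperone genes, Atrx, a remodeller that deposits H3.3 with DAXX, fell at 4 h (-0.85 ± 0.24 SE, adjusted p = 0.0463, limma), and no other passed at any of the 3 times. None of 14 S phase genes, among them Pcna and the Mcm2 to Mcm7 helicase subunits, passed at any time, with medians of -0.08, -0.20 and -0.04. At 7 h, of the 6 tested RNAs without a tail, Scarna17 rose (2.62 ± 0.51 SE, adjusted p = 0.0461, limma), while Rmrp (1.21 ± 0.59 SE, adjusted p = 0.213) and Rpph1 (1.4495 ± 0.51 SE, adjusted p = 0.111) did not pass.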

How the data were processed

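RNA of 12 libraries was analysed, 2 per group. Per the paper's methods and the submitters' processing notes, the authors selected poly(A) RNA with oligo-dT, made directional libraries, sequenced single-end reads of 50 bases, trimmed them with Trim Galore 0.4.1, aligned them with HISAT2 2.0.5 to GRCm38 and quantified genes in SeqMonk. The deposited values are log2 RPKM per gene. From these, whole reads were recovered with GENCODE M21 exon lengths (a gene without a read is written as 0.9 read, tolerance 0.03) for 33972 of 34245 genes. The remaining 255 with a length were rounded for voom only. All fits used limma 3.58.1 (R 4.3.3) with a mean-variance trend, on genes of at least 1 RPKM in at least 2 libraries, per comparison. The fits were tested on simulated data: of 200 genes changed by 2 on the log2 scale, 97%, 89.5% and 98.5% were recovered in the designs of 4, 7 and 10 h. Recovery was not tested for the histone members. At 4 h, 15 of 18 members had an SD above that of their level. At 7 and 10 h it was 10 of 15 and 11 of 13. For all genes the shares were 34.6%, 41.1% and 43.6% at 4, 7 and 10 h. Intervals cover counting error only.

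Members and lists were chosen with earlier results of these data known. Named members were the 2 highest per class by mean log2 RPKM, those called, Hist1h2ak, and 4 known to give poly(A) transcripts. Others named were chosen after their values were seen. Replicate numbers were not treated as pairing libraries, since deviations of same-numbered libraries from their group means correlated at -0.01, 0.09 and 0.14 at 4, 7 and 10 h. Alternatives covered scaling, filter, pseudocount, length trend, voom, threshold, a replicate block and leaving out each library.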

Additional observations from a re-analysis of the deposited data

Results flagged for a closer look

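The effect of p38i on Hist1h2ak differed between times. It was -2.38 on the log2 scale at 4 h, with both p38i libraries below both DMSO libraries, and 3.12 at 7 h, with both above. The difference of 5.50 passed the interaction test (limma, adjusted p = 0.0393) in the main fit and in 6 alternatives, and did not pass in 13 others, in which its direction was the same. Among the libraries of 4 and 7 h, the gene reached 1 RPKM only in DMSO at 4 h and p38i at 7 h. It thus entered the test through the 2 groups in which it was high. It rests on 48 reads in DMSO and 12 in p38i at 4 h, and on 5 in DMSO and 27 in p38i at 7 h.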

How the results depend on the processing

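Beside each count of members that passed stands the share of all genes called in the same fit. At 4 h, 2 members passed in the main fit (0.909%), and a pseudocount of 5 gave 1 (0.992%). With median centring, quantile normalization, no filter, a fit of all 12 libraries and the length trend removed, 0 passed (0% each), as with voom (0.316%). Which members passed at 4 h, and in which direction, changed with the library left out. Hist2h2bb was among them as higher in p38i without DMSO 4 h replicate 1 or without p38i 4 h replicate 1. At 7 h, 0 passed in the main fit (2.13%), 5 with no filter, of which 3 were higher and 2 lower (3.61%), 2 with pseudocounts of 0.1, 1 and 5 (3.18%, 4.65% and 5.91%), 3 with all 12 libraries (23.6%), 4 at a threshold of 0.1 (15.3%), and 0 to 5 without each library (0% to 27.4%). At 10 h, 0 passed in the main fit (0.803%), 2 at a threshold of 0.1 (4.71%), and 0 to 1 without each library (0.723% to 1.30%). The difference of effects from 4 to 7 h called 1 member, the only gene called, but 0 with no trend, median centring, quantile normalization, no filter, a minimum of 10 RPKM, all 12 libraries, the length trend removed and voom, and 0 to 1 without each library (0% to 2.62%). That from 7 to 10 h called 0, but 4 at a threshold of 0.1 (10.3%) and 0 to 5 without each library (0% to 25.8%). DMSO at 10 h against 4 h called 0 (0.471%), but 1 each with no trend (0.240%), no filter (0.178%), a pseudocount of 1 (0.554%) and voom (4.33%), 3 at a threshold of 0.1 (1.52%), and 0 to 4 without each library (0.435% to 11.5%). Fewer genes are tested under a higher minimum. A minimum of 10 RPKM left no member to test at 4 and 10 h. For the other settings the cause was not tested.

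The median of the members at 7 h was 1.08, against -0.14 for all genes. With no filter it was 0.67, as for all genes, which is the value that library depth alone gives to unread genes. It was 0.58 at a minimum of 10 RPKM, 0.31 with a pseudocount of 5 and 0.62 with the length trend removed, against -0.04, -0.07 and 0.0092 for all genes, and lay between 0.71 and 1.19 without each library. At 4 h it lay between -0.76 and 0.24 without each library, turning positive without DMSO 4 h replicate 1 or p38i 4 h replicate 1. Hist1h4b at 4 h lay between -3.34 and 0.054 without each library, reversing without p38i 4 h replicate 1. Without the highest gene, the class sums were 6.81 RPKM for H2A, 8.94 RPKM for H2B and 5.45 RPKM for H4. The median SD between replicates over the groups, 0.63, became 0.19 at a minimum of 10 RPKM (2 members) and 0.29 with a pseudocount of 1.

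Same-numbered libraries share only a number. With the replicate block, 2 members passed at 4 h (beside 0.696% of all genes), 4 at 7 h (18.5%), 2 at 10 h (3.74%), 1 in each difference of effects (0.0177% from 4 to 7 h and 5.35% from 7 to 10 h) and 5 in DMSO at 10 h against 4 h (4.95%). The median member had 0 to 9 reads in a library, which limits what could be detected for them.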
